A study of Mus musculus with 11 samples.

Results

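Mitochondrial protein import genes were followed here in mouse small cell lung tumors with a doxycycline-dependent MYCN transgene. The members were every gene symbol of the count files that began with Timm or Tomm followed by a digit, and there were 22 of them among 23284 genes. They comprised 9 genes of the outer membrane translocase, 6 genes of small chaperones of the intermembrane space, 6 genes of the inner membrane translocases and the cytosolic cochaperone Tomm34. A member that carries another symbol in the files, such as Fxc1 (now Timm10b), was not matched and was read with the other import genes.

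The ON DOX group held 7 tumors grown with doxycycline, and the OFF DOX group held 4 tumors taken after 7 days without it. All 11 tumors shared the genotype labelled Rb;p53,TRE-MYCN, LSL-RTTA: altered Rb and p53 alleles, MYCN under a tetracycline-responsive element, and a Cre-dependent doxycycline transactivator. What drives Cre is not stated, and no label ties the tumors to separate mice. A p-value here therefore reflects variation among these samples, which may be technical in part and may not stand for variation among mice. Doxycycline belongs to the tetracycline antibiotics, which are known to inhibit the mitochondrial ribosome, and no tumor received it without the transgene, so for every gene below MYCN and the drug cannot be told apart.

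Most mitochondrial proteins are made in the cytosol and enter through the TOM complex of the outer membrane, where receptors hand precursors to the Tomm40 channel. Precursors with a presequence then pass the TIM23 complex of the inner membrane into the matrix, pulled by an Hsp70 motor. Hydrophobic carriers are instead guided by hexamers of small TIM chaperones to the TIM22 complex, which inserts them into the inner membrane.

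Reads over genes ranged from 10324089 to 13123838 in ON DOX tumors and from 8951733 to 12190957 in OFF DOX tumors. Values per tumor are CPM, the reads of a gene scaled to a common library total, with TMM factors that were 0.835 to 1.009 in ON DOX and 1.09 to 1.22 in OFF DOX, so directions below were also read under other scalings. Mycn was at 102 ± 48.1 CPM in ON DOX and 12.2 ± 4.51 CPM in OFF DOX tumors (SD, n = 7 and 4), with every ON DOX tumor higher (log2 fold change 3.06, SE 0.47, edgeR adjusted p = 0.00139). The labels do not give the species of the transgene, so how much of it was counted as Mycn is unknown. Neuroendocrine markers, which define the labelled tumor type, were present in every tumor, with a summed level over 8 genes of 2132 to 3936 CPM in ON DOX and 1556 to 7715 CPM in OFF DOX and 1 of the 8 called higher in ON DOX. Lung epithelial markers differed widely between tumors: Sftpc, surfactant protein C, was above 100 CPM in ON DOX tumors 3 and 5 and in OFF DOX tumors 1, 3 and 4, called lung-containing here, and at most 5.86 CPM in the 6 other tumors, called lung-poor. The 8 lung markers summed to 6.46 to 3047 CPM in ON DOX and 25.2 to 30094 CPM in OFF DOX, and 1 of the 8 was called lower in ON DOX. The 8 immune markers summed to 198 to 915 CPM in ON DOX and 383 to 7034 CPM in OFF DOX, with 5 of 7 tested called lower. The 8 muscle markers summed to 12 to 239.6 CPM in ON DOX and 9.38 to 379 CPM in OFF DOX, with 0 of 7 tested called. The 4 endothelial markers summed to 35.9 to 126 CPM in ON DOX and 47.6 to 602 CPM in OFF DOX (2 of 4 called lower), and the 4 fibroblast markers to 365 to 1619 CPM in ON DOX and 363 to 2137 CPM in OFF DOX (0 of 4 called). Defining markers at 0 reads included Cldn18 in ON DOX tumors 2, 4 and 6, Sftpb in ON DOX tumor 2, and Myh6 in ON DOX tumors 1, 2 and 6. In bulk tissue, fewer cells of a type and less RNA per cell cannot be told apart.

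Part of the import genes were higher in ON DOX than in OFF DOX tumors. No tumor from before doxycycline was sampled, so a rise with the drug and a fall after its withdrawal cannot be told apart. Of the 22 members, 20 passed the low-count filter and were tested, 11 of these were called higher in ON DOX at an edgeR adjusted p below 0.05, 0 were called lower, and 9 were not called, which does not show that those 9 were equal between the groups. Among all 15237 genes tested, 16% were called higher and 13.4% lower. Levels of 9 members did not overlap between the groups, each with all 7 ON DOX tumors above all 4 OFF DOX tumors, a pattern found in 11.4% of all genes, and 0 had all ON DOX tumors below all OFF DOX tumors, found in 5.41% of all genes. The median log2 fold change of the 20 tested members was 0.54, against 0.0023 for all genes tested. Changes were unequal within each compartment: the log2 fold changes ran from -0.17 to 1.56 for the outer membrane, from -0.17 to 2.22 for the intermembrane space and from -0.27 to 1.63 for the inner membrane. The summed level of all 22 members was 1693 to 2394 CPM in ON DOX tumors and 987 to 1112 CPM in OFF DOX tumors, without overlap.

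The size of the count depended on the scaling and the threshold. RLE factors gave 10 members higher (against 14.1% of all genes), upper quartile factors 6 (11.1%), and library totals alone 6 higher and 1 lower (8.64% and 22%). DESeq2 called 10 higher (17.5%) and limma voom 10 (16.4%). A minimum count of 50 left 10 (16.7%) and no low-count filter 9 (10.6%). At an adjusted p below 0.01, 6 members remained (7.79%): Tomm20, Tomm70a, Tomm40, Timm8a1, Timm9 and Timm23. Those 6 were also the ones called higher under upper quartile factors and under library totals.

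**Figure D1:**
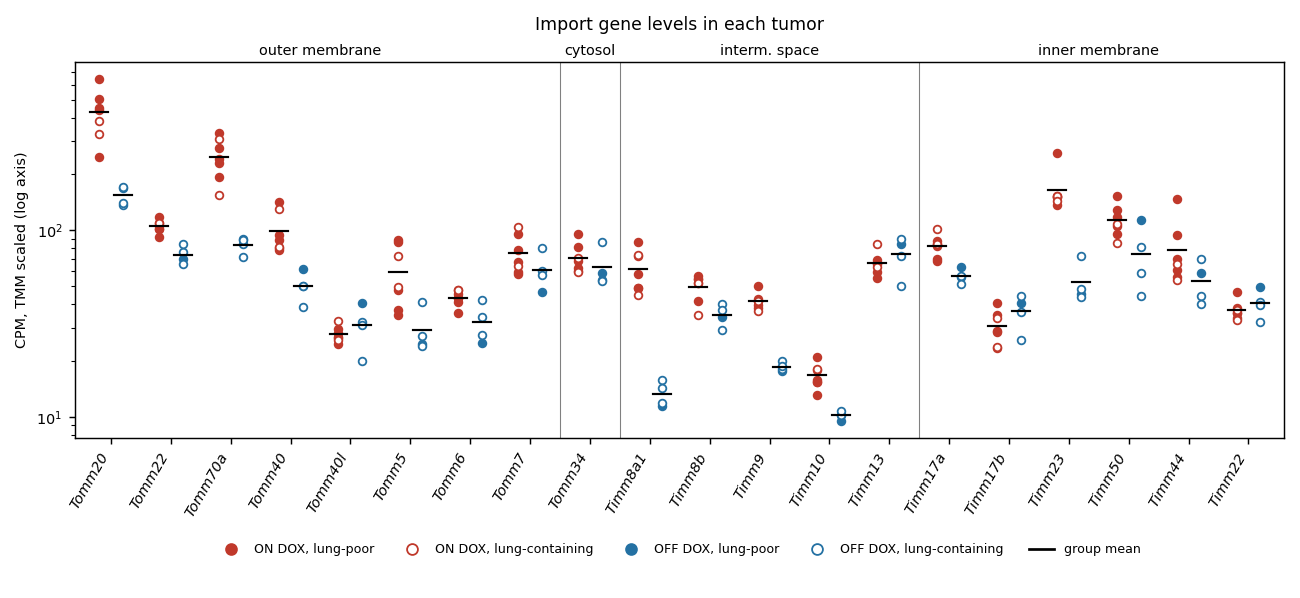
TMM-scaled CPM (log axis) of the 20 tested import genes in each tumor, grouped by compartment, with ON DOX left of OFF DOX. Open circles are lung-containing tumors, filled circles lung-poor tumors and black bars group means; the ON DOX and OFF DOX points separate fully for 9 genes, such as Timm8a1 and Timm9.

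Promoter sequence is shown for the members with a canonical E-box, CACGTG, the hexamer that MYC family dimers with MAX bind, in the window from 250 bases before to 50 bases after the RefSeq start. CACGTG reads the same on both strands, and it was the only motif searched. Of 22 members, 20 had a window in the RefSeq table (build GRCm38.p6), and 5 of these held the motif, namely Tomm20, Tomm20l, Timm8a1, Timm9 and Timm10. That was 4 of the 11 members called higher (36.4%) and 0 of the 7 tested members that were not called and had a window. For comparison, the motif was in 15% of all 1816 genes called higher that had a window, in 8.63% of genes called lower and in 10.9% of genes not called. Counted per gene in the same way, it was in 11.3% of tested genes and 8.09% of all genes with a window. Counted per window, it was in 7.15% of all 32851 windows. The stretches before the start of the 3 called genes whose motif lies fully upstream are printed 5′ to 3′ on the gene's strand, with the E-box in capitals.
Tomm20: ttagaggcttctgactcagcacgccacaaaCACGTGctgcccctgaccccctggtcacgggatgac
Timm8a1: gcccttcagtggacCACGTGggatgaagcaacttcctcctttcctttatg
Timm9: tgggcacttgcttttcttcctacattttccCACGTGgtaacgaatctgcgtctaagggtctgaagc
The printed stretches lie at chr8:126946012-126946077 for Tomm20, chrX:134541871-134541920 for Timm8a1 and chr12:71136698-71136763 for Timm9, all on the minus strand. Within them the E-box begins 126 bases before the start in Tomm20, 236 bases before it in Timm8a1 and 58 bases before it in Timm9. Timm8a1 held another E-box 24 bases after the start, Timm9 another across the start itself, and Timm10 had its E-box 28 bases after the start. These coordinates are of GRCm38.p6, while the reads were aligned to mm9. A match describes the letters of the window and does not show binding.

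The TOM receptors were higher in ON DOX to different extents. Tomm70a, the receptor that takes carrier precursors from cytosolic Hsp70 and Hsp90, ranged from 154 to 331 CPM around a median of 239.9 CPM in ON DOX tumors, against 84.1, 89.1, 88.9 and 72.0 CPM in OFF DOX tumors. It was 2.95-fold higher in ON DOX (log2 fold change 1.56, SE 0.22, edgeR adjusted p = 9.05e-04). The lowest ON DOX tumor stood well above the highest OFF DOX tumor. Tomm20, the receptor for presequences, ranged from 245 to 640.3 CPM around 438 CPM in ON DOX, against 169.6, 168, 136 and 139.9 CPM in OFF DOX. Without any overlap of the groups, it was 2.78-fold higher in ON DOX (log2 fold change 1.48, SE 0.24, edgeR adjusted p = 0.00172). Tomm22, the central receptor that organizes the complex, moved less: 91.5 to 117 CPM around 106 CPM in ON DOX, against 75.8, 70.3, 65.8 and 83.8 CPM in OFF DOX. It was 1.42-fold higher in ON DOX (edgeR adjusted p = 0.0134), again without overlap, and its coefficient of variation within ON DOX, 7.73%, was the smallest of the 22 members. Tomm22 lost its call with upper quartile factors (adjusted p = 0.124) and with library totals alone (adjusted p = 0.295), while Tomm70a and Tomm20 kept theirs under every scaling tried.

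Tomm40, the beta-barrel channel of the outer membrane, was at 77.9 to 142 CPM around 88.4 CPM in ON DOX tumors, against 38.5, 62.1, 50.1 and 50.1 CPM in OFF DOX tumors. The channel gene was 1.97-fold higher in ON DOX (log2 fold change 0.98, SE 0.22, edgeR adjusted p = 0.00791). Every ON DOX tumor was above every OFF DOX tumor. Its paralog Tomm40l was at 24.4 to 32.7 CPM around 26.6 CPM in ON DOX, against 32.3, 40.5, 31.2 and 19.98 CPM in OFF DOX. Tomm40l was not called (log2 fold change -0.17, SE 0.20, edgeR adjusted p = 0.545); the ON DOX tumors lay within the OFF DOX range. In the reference annotation 3304 exonic bases of Tomm40l lie opposite exons of Nr1i3 on the other strand, so its counts are uncertain, since the strand setting of the counting was not given. The log2 fold change of Tomm40l was 0.17 with the muscle marker score as a covariate, so its sign is not fixed.

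The small TOM subunits, which stabilize the channel, did not move as a block. Tomm5 ranged from 34.9 to 88.6 CPM around 49.5 CPM in ON DOX tumors, against 27.0, 24.4, 23.8 and 41.3 CPM in OFF DOX tumors. The difference passed the threshold (2.04-fold, log2 fold change 1.03, SE 0.31, edgeR adjusted p = 0.0274), although ON DOX tumors 2 and 6 lay within the OFF DOX range. The Tomm5 call was lost without ON DOX tumor 1 (adjusted p = 0.0686) or 3 (0.0597), or without OFF DOX tumor 1 (0.0721), 2 (0.0521) or 3 (0.0753). Tomm6 was at 35.8 to 47.7 CPM around 43.4 CPM in ON DOX, against 34.3, 24.8, 27.6 and 42.4 CPM in OFF DOX, and was not called (log2 fold change 0.43, SE 0.18, edgeR adjusted p = 0.0817). Without OFF DOX tumor 4, whose Tomm6 level lay within the ON DOX range, it was called (log2 fold change 0.59, edgeR adjusted p = 0.0387). In the annotation Tomm6 shares 859 exonic bases with the same-strand gene Gm21981, so its level is uncertain. Tomm7 was at 58.2 to 103 CPM around 67.0 CPM in ON DOX, against 60.3, 46.4, 57.6 and 80.4 CPM in OFF DOX, with overlapping groups and no call (log2 fold change 0.30, SE 0.21, edgeR adjusted p = 0.312). Tomm20l, a Tomm20 paralog, had 0 to 13 reads per tumor and was not tested. Tomm34, which despite its name is a cytosolic cochaperone, was at 59.4 to 95.1 CPM around 67.8 CPM in ON DOX and 53.9, 59.0, 53.4 and 85.9 CPM in OFF DOX, and was not called (log2 fold change 0.17, SE 0.19, edgeR adjusted p = 0.52); its sign turned under upper quartile factors and under library totals.

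**Figure D2:**
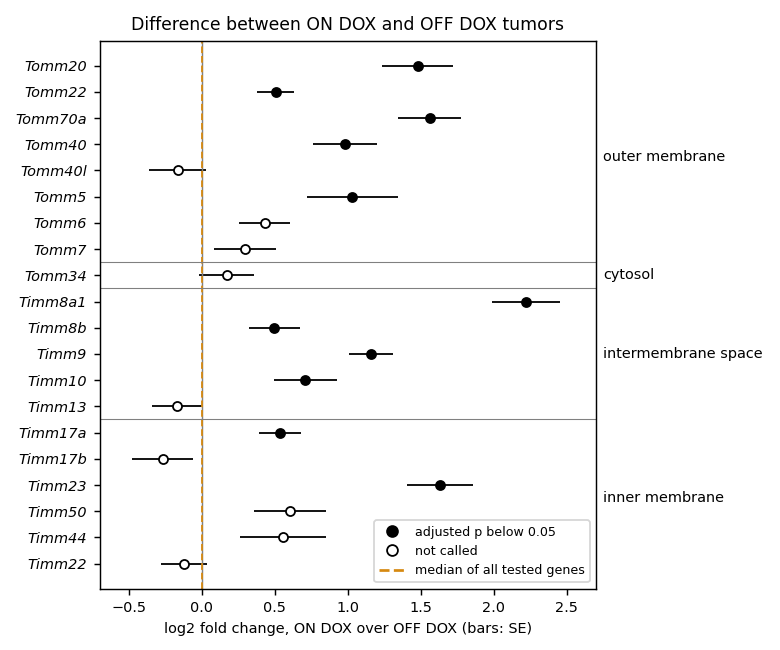
Log2 fold change of each tested import gene, ON DOX over OFF DOX, with bars for the SE; filled points passed an edgeR adjusted p below 0.05. Timm8a1 had the highest value, 2.22, and the dashed line marks the median of all tested genes.

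Among the small TIM chaperones, Timm8a1 stood out by size. Timm8a1, whose human counterpart is the deafness dystonia protein, ranged from 45.1 to 86.4 CPM around 58.0 CPM in ON DOX tumors, against 15.7, 11.4, 14.2 and 11.9 CPM in OFF DOX tumors. It was 4.65-fold higher in ON DOX (log2 fold change 2.22, SE 0.23, edgeR adjusted p = 3.43e-04), which placed it at rank 23 of 15237 genes by p. The lowest ON DOX tumor was far above the highest OFF DOX tumor, and the call held with each tumor left out in turn (adjusted p from 4.57e-04 to 0.00281). Timm13, its partner in the chaperone hexamer, was at 55.6 to 84.1 CPM around 65.5 CPM in ON DOX, against 50.4, 84.3, 73.0 and 89.5 CPM in OFF DOX. The groups overlapped, and Timm13 was not called (log2 fold change -0.17, SE 0.18, edgeR adjusted p = 0.499). Its sign turned within the lung-containing tumors, where the log2 fold change was 0.077.

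Timm9 and Timm10 encode the hexamer that escorts carrier proteins. Timm9 was at 36.7 to 49.8 CPM around 41.5 CPM in ON DOX tumors, against 18.1, 17.6, 19.9 and 18.7 CPM in OFF DOX tumors. It was 2.24-fold higher in ON DOX (log2 fold change 1.16, SE 0.15, edgeR adjusted p = 6.49e-04), with a narrow spread in each group and no overlap. Timm10 was at 13.1 to 21.0 CPM around 15.7 CPM in ON DOX, against 10.2, 9.51, 10.3 and 10.8 CPM in OFF DOX. The groups did not overlap here either, and Timm10 was called (log2 fold change 0.71, SE 0.22, edgeR adjusted p = 0.0293), but it had the fewest reads of the tested members, 96 to 251 per tumor. Its call was lost without ON DOX tumor 3 (adjusted p = 0.0675) or 7 (0.0513), or without OFF DOX tumor 1 (0.0597), 3 (0.0664) or 4 (0.0575). Timm8b, a Timm8a1 paralog, was at 35.3 to 56.5 CPM around 52.2 CPM in ON DOX, against 40.0, 34.1, 37.2 and 29.0 CPM in OFF DOX. Timm8b passed the threshold narrowly (1.41-fold, log2 fold change 0.50, SE 0.17, edgeR adjusted p = 0.0493), while ON DOX tumor 3 lay within the OFF DOX range. The Timm8b call held in 2 of the 11 fits with a tumor left out, those without ON DOX tumor 3 or 7, and the adjusted p over all 11 ran from 0.0374 to 0.153. It was lost with DESeq2 (0.0575), limma voom (0.0659) and RLE factors (0.0914). Timm8a2, another paralog, had 0 to 3 reads per tumor and was not tested.

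The TIM23 complex was led by its channel gene. Timm23 ranged from 136 to 258 CPM around 149.9 CPM in ON DOX tumors, against 72.5, 45.4, 48.4 and 43.5 CPM in OFF DOX tumors. It was 3.10-fold higher in ON DOX (log2 fold change 1.63, SE 0.23, edgeR adjusted p = 8.99e-04). Every ON DOX tumor was well above the OFF DOX tumors. Near-identical copies limit this value: 6 other annotated genes, 5 of them pseudogenes, matched Timm23 at 95% identity or more over at least 100 bases, and together covered 95.6% of its transcript. Reads that aligned to several places were not counted for any gene and made up 13.8% to 20.9% of records in ON DOX, against 9.15% to 11.9% in OFF DOX; their part in the Timm23 result was not tested. One pseudogene likewise covered 43.1% of the Timm8a1 transcript. Matches to other genes covered 16.4% of the transcript of Tomm5, 14.9% of Tomm7, 8.94% of Tomm20, 8.93% of Timm17a and 6.22% of Timm17b. Those of Timm17a and Timm17b were to 23 and 139 genes, with 1 and 2 pseudogenes among them, and need not be copies of the gene. No such match was found for the 15 other members.

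Timm17a, the partner of Timm23 in the channel, was at 68.6 to 101 CPM around 83.8 CPM in ON DOX tumors, against 56.2, 63.5, 56.5 and 51.2 CPM in OFF DOX tumors. It was 1.45-fold higher in ON DOX without overlap (log2 fold change 0.54, SE 0.15, edgeR adjusted p = 0.0189). The call was lost without ON DOX tumor 1 (adjusted p = 0.0553), without OFF DOX tumor 4 (0.0566) and with library totals alone (0.274). Its X-linked paralog Timm17b was at 23.4 to 40.5 CPM around 28.9 CPM in ON DOX, against 25.8, 40.6, 36.6 and 44.2 CPM in OFF DOX. The groups overlapped and Timm17b was not called (log2 fold change -0.27, SE 0.21, edgeR adjusted p = 0.349). Timm50, the receptor that meets presequences as they leave the outer membrane, was at 85.6 to 151 CPM around 108 CPM in ON DOX, against 44.4, 113, 80.7 and 59.0 CPM in OFF DOX. Timm50 was not called (log2 fold change 0.61, SE 0.25, edgeR adjusted p = 0.0818). Without OFF DOX tumor 2, the OFF DOX tumor within the ON DOX range, it was called higher (log2 fold change 0.89, edgeR adjusted p = 0.014). Timm44, which anchors the import motor to the channel, was at 54.1 to 147 CPM around 66.1 CPM in ON DOX, against 44.6, 59.0, 40.2 and 70.3 CPM in OFF DOX, and was not called (log2 fold change 0.55, SE 0.29, edgeR adjusted p = 0.172). ON DOX tumor 4 held the high Timm44 value. Timm22, the carrier translocase, was at 33.1 to 46.3 CPM around 36.0 CPM in ON DOX, against 32.3, 49.2, 40.9 and 39.5 CPM in OFF DOX. Timm22 was not called (log2 fold change -0.12, SE 0.16, edgeR adjusted p = 0.588), except as lower in ON DOX with library totals alone (log2 fold change -0.44, edgeR adjusted p = 0.0421), a scaling that moved the median of all genes by -0.31.

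The outer membrane members were not set apart from the inner membrane and intermembrane space members when these were pooled. For comparison with each class, 16% of all 15237 genes tested were called higher and 13.4% lower, with a median log2 fold change of 0.0023. Of 8 tested outer membrane members, 5 were called higher and 0 lower (62.5%), with a median log2 fold change of 0.74. Of 11 tested members of the intermembrane space and inner membrane, 6 were called higher and 0 lower (54.5%), with a median log2 fold change of 0.55. The pooled class was itself uneven: 4 of 5 small chaperones (80%, median log2 fold change 0.71) and 2 of 6 inner membrane genes (33.3%, median 0.54) were called higher. The classes were described and not tested against each other, as genes are not replicates. The mean log2 CPM of the outer members exceeded that of the inner and intermembrane members by 0.59 to 0.86 in ON DOX tumors and by 0.53 to 0.75 in OFF DOX tumors, with overlapping groups. The difference between the class medians of the log2 fold change, 0.19, was 4.36e-05 when the muscle marker score was a covariate and 0.35 with the lung marker score.

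**Figure D3:**
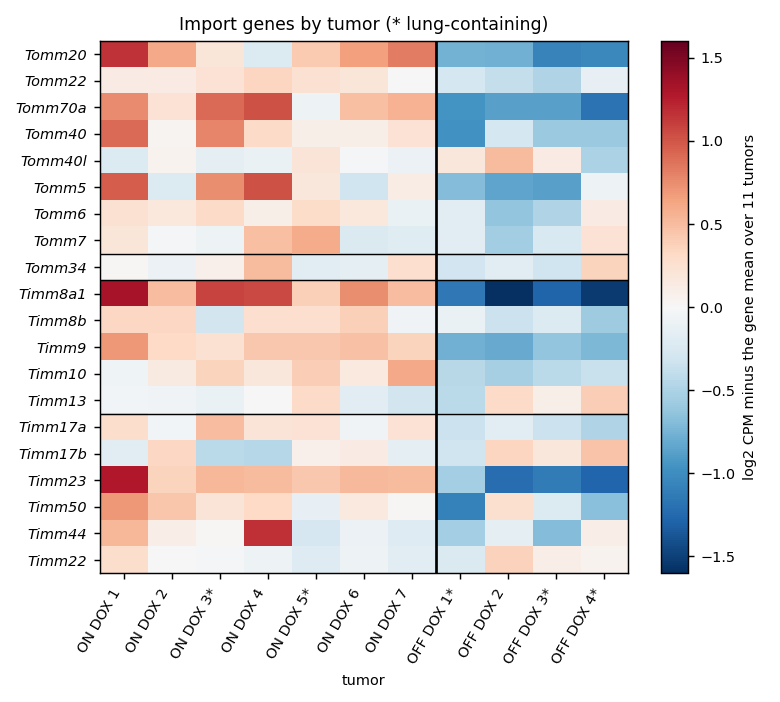
Log2 CPM of each tested import gene minus its mean over the 11 tumors, with tumors in columns (ON DOX left of the vertical line, asterisks for lung-containing tumors) and compartments separated by horizontal lines. Timm8a1, Timm23, Tomm70a and Tomm20 are low in all 4 OFF DOX columns, while Tomm40l, Timm13, Timm17b and Timm22 are not.

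Members varied among tumors of a group as well. ON DOX tumor 1 had the highest level among ON DOX tumors for 7 of the 20 tested members, and ON DOX tumor 5 the lowest for 6. OFF DOX tumor 4 had the highest level among OFF DOX tumors for 9 members, and OFF DOX tumor 2 for 6. The median coefficient of variation of the tested members was 18.8% in ON DOX and 20.4% in OFF DOX, against 32.9% and 34.8% over all genes tested. All genes tested include genes with few reads, and no set matched for level was compared.

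Lung content moved with the groups, so members were also read within the lung-poor and within the lung-containing tumors. The lung-containing tumors were not alike: their lung markers summed to 961 and 3047 CPM in ON DOX tumors 3 and 5, against 30094, 2658 and 4641 CPM in OFF DOX tumors 1, 3 and 4. The 9 members that did not overlap over all tumors cannot overlap in a subset either, so only the other members are read for order here. Tomm5 was higher in all 5 lung-poor ON DOX tumors than in OFF DOX tumor 2, the only lung-poor OFF DOX tumor, and in both lung-containing ON DOX tumors than in all 3 OFF DOX tumors. Timm8b was higher likewise in the lung-poor tumors but overlapped in the lung-containing ones. Of the 9 members not called, 3 were higher in every lung-poor ON DOX tumor and 4 lower, against 24% and 24.6% of all genes. In the lung-containing tumors 2 of these 9 were higher and 0 lower, against 24% and 21.6% of all genes. EdgeR called 0 members higher in either subset, against 0% of all genes. An unadjusted p below 0.05 was found for 6 of 20 members in the lung-poor tumors, against 14.5% of all genes, and for 8 of 20 in the lung-containing tumors, against 24.8%. DESeq2 called 4 and 7 members higher in these subsets, against 4% and 8.18% of all genes. When the lung marker score entered the fit 8 members were called higher, against 8.19% of all genes. The muscle score and the immune score, the second chosen after seeing the data, left 6 members each, against 9.36% and 6.74% of all genes. Members that were called under all 3 scores were Tomm20, Tomm70a, Timm8a1, Timm9 and Timm23.

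Pairs of related members were compared by the ratio of their reads within a tumor, which no scaling between libraries can change. The ratios are not corrected for gene length, and the 5 pairs, chosen after values were seen, are described without a test. The ratio of Timm8a1 to Timm8b was 0.864 to 2.08 around 1.18 in ON DOX tumors, against 0.392, 0.334, 0.381 and 0.411 in OFF DOX tumors. That of Timm8a1 to Timm13 was 0.537 to 1.31 around 0.970 in ON DOX, against 0.311, 0.135, 0.194 and 0.133 in OFF DOX. In both pairs every ON DOX tumor was above every OFF DOX tumor. The ratio of Tomm40 to Tomm40l was 2.47 to 5.80 around 3.32 in ON DOX, against 1.19, 1.53, 1.61 and 2.51 in OFF DOX, and only the lowest ON DOX tumor, number 5, and the highest OFF DOX tumor, number 4, crossed. The ratio of Timm17a to Timm17b was 1.72 to 4.27 around 2.90 in ON DOX, against 2.18, 1.56, 1.55 and 1.16 in OFF DOX, with ON DOX tumors 2 and 6 below the highest OFF DOX tumor. The ratio of Timm9 to Timm10 was 1.88 to 3.80 around 2.51 in ON DOX, against 1.78, 1.85, 1.93 and 1.73 in OFF DOX, and ON DOX tumor 7 lay within the OFF DOX range.

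**Figure D4:**
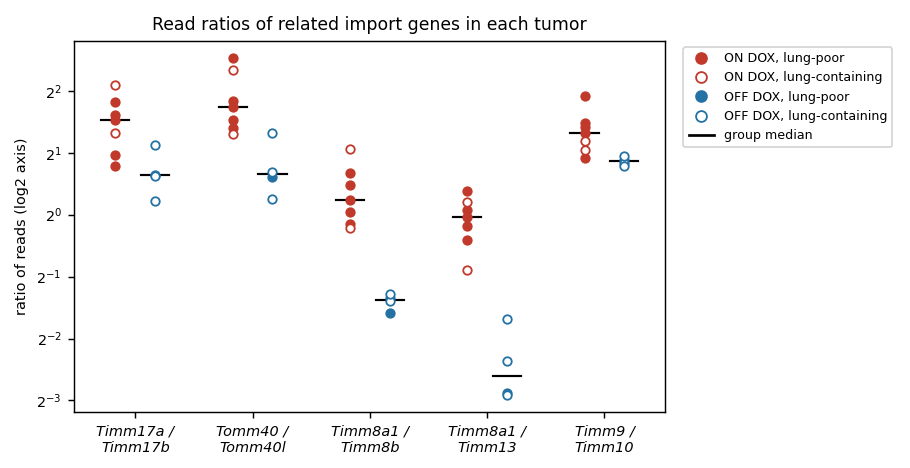
Ratio of reads between related import genes in each tumor (log2 axis, not corrected for length), ON DOX left of OFF DOX, with black bars for the group medians. The ratio of Timm8a1 to Timm8b is at least 0.864 in ON DOX and at most 0.411 in OFF DOX, and Timm8a1 to Timm13 also separates fully.

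Levels can be ordered between genes only per length, here as CPM per kb of annotated exons. This length joins the exons of all annotated transcripts and can exceed the longest coding transcript. It was 4282 against 2564 bases for Timm9 and 1786 against 1173 for Timm23, while both were 518 for Timm8b. The order below therefore depends on the length chosen, and no other length was tried. In ON DOX tumors the highest levels were those of Timm8b (95.6 ± 15.4 CPM per kb), Timm23 (91.2 ± 23.6) and Tomm20 (87.1 ± 26.0), whose spreads overlapped (SD, n = 7). In OFF DOX tumors they were those of Timm8b (67.7 ± 9.13 CPM per kb), Tomm7 (54.4 ± 12.6) and Timm13 (54.2 ± 12.7), which overlapped too (SD, n = 4). Timm23 ranked 2 of 22 in ON DOX and 7 in OFF DOX, and Timm8a1 ranked 8 in ON DOX and 16 in OFF DOX. By this length the lowest tested members were Tomm40l in ON DOX (5.38 ± 0.543 CPM per kb) and Timm9 in OFF DOX (4.34 ± 0.225 CPM per kb).

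Other genes of the import route and of mitochondrial mass, 54 in number and all tested, were in part higher in ON DOX. Of these, 24 were called higher and 0 lower (44.4% higher, against 16% of all genes), with a median log2 fold change of 0.51. In the motor list 1 of 7 was called, Hspa9, the matrix Hsp70, at 613 ± 138 CPM in ON DOX and 180.0 ± 41.4 CPM in OFF DOX (log2 fold change 1.77, SE 0.23, edgeR adjusted p = 6.33e-04). The nucleotide exchange factor Grpel1 (log2 fold change 0.47) and the J protein Dnajc15 (0.70) were not called. Of 3 matrix chaperones 2 were called: Hspd1, the Hsp60 folding chamber, at 798 ± 232 CPM in ON DOX and 187 ± 36.4 CPM in OFF DOX (log2 fold change 2.10, SE 0.26, adjusted p = 6.06e-04), and its cochaperonin Hspe1 (log2 fold change 1.64), while Trap1 (0.51) was not. Among 4 sorting and assembly genes, which insert outer membrane barrels, Mtx3 (log2 fold change 0.99), Mtx2 (1.05) and Samm50 (0.46) were called. Chchd4, the oxidoreductase that traps small TIM proteins in the intermembrane space, was at 49.0 ± 6.41 CPM in ON DOX and 26.3 ± 1.86 CPM in OFF DOX (log2 fold change 0.90, SE 0.15, edgeR adjusted p = 0.0021), while its oxidase Gfer (0.50) was not called. The insertase Oxa1l was called (log2 fold change 1.05) and Cox18 (0.09) was not.

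Among 7 presequence peptidases 1 was called, Pitrm1, which degrades cleaved presequences (log2 fold change 1.29), while Mipep (0.73) and the processing peptidase subunit Pmpcb (0.42) were not. Of 6 inner membrane partners Timm21 (listed as 1700034H14Rik, log2 fold change 0.88) and Timm29 (listed as 1810026J23Rik, 0.58) were called, and Agk (0.46) was not. Fxc1, the small chaperone now named Timm10b, had a log2 fold change of -0.01 (SE 0.20, edgeR adjusted p = 0.972). Of 7 cristae organising genes Immt (log2 fold change 0.79) and Apoo (0.86) were called, and Chchd3 (0.36) was not. Of 7 cytosolic targeting genes 5 were called, among them Naca (log2 fold change 1.25), Hsp90ab1 (1.45) and Dnaja2 (0.88). Of 9 channel and mass genes 6 were called, among them the ADP/ATP carrier Slc25a5 (1.0), the insertase Mtch2 (0.83) and Tfam, which packages mitochondrial DNA (0.69). No companion gene was called lower with TMM factors in all tumors, but Romo1 was without OFF DOX tumor 1 (log2 fold change -0.61, edgeR adjusted p = 0.04996) and with library totals alone (log2 fold change -0.75, edgeR adjusted p = 0.0349).

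**Figure D5:**
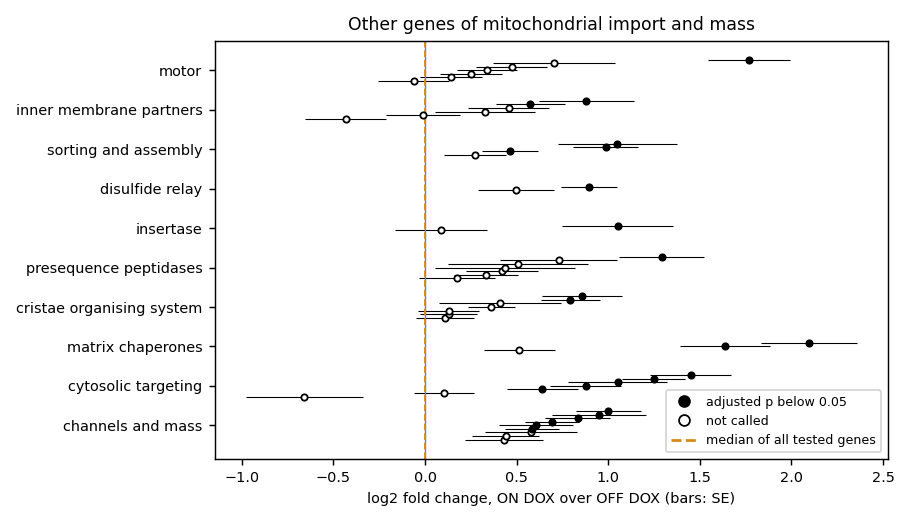
Log2 fold change, ON DOX over OFF DOX, of 54 other genes of import and mitochondrial mass by list, with bars for the SE and filled points for an edgeR adjusted p below 0.05. All 24 filled points lie above 0, led by Hspd1 at 2.10.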

How the data were processed

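Poly(A) RNA of 11 tumors was sequenced, per the labels' protocols. Build mm9 and the tools HTSeq 0.6.1, TopHat2 2.0.8b and bcl2fastq 1.8.4 are named per the submitters' processing notes; annotation and strand setting are not given in the sources used here. The authors deposited raw read counts per gene symbol, with no normalization. Rows that name no gene (5, of which no-feature reads were 14.8% to 21.5%) entered neither library sizes nor tests. Groups and tumor numbers came from the titles. Counts of tumors in a group always differed beyond sampling noise (smallest chi-square per gene 53.8).

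Counts were filtered (filterByExpr, minimum count 10, minimum total 15), scaled by TMM and tested with the quasi-likelihood test of edgeR 4.0.16 in R 4.3.3, with Benjamini-Hochberg adjustment over 15237 genes and a threshold of 0.05. The test was checked on simulated data. SE is the absolute log2 fold change over the square root of F. Fits without the filter, with stricter filters, DESeq2 1.42.0, limma 3.58.1, other scalings, marker scores as covariates (mean log2 CPM, prior count 2), tumor subsets and each tumor left out were alternatives. Members, companion lists and markers were chosen with earlier results of these data known. Every member is reported; each companion list names up to 3 genes with the smallest p, genes called lower, and Fxc1, chosen after its value was seen. Some genes of the companion and marker lists are counted but not reported here by name. Gene lengths and overlaps came from GENCODE M21 (another build), copies from blastn 2.17.0, promoters from RefSeq. The depth of each tumor, given with the results, limits low genes most: Timm10 had 96 reads in its lowest tumor.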

Additional observations from a re-analysis of the deposited data

Results flagged for a closer look

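Single tumors stood apart from the rest of their group in 3 of 40 comparisons of a member within a group, for 2 members. Chance would mark each comparison about 1 time in 20, so 3 is near the count that chance would give. Timm23 was at 258 CPM in ON DOX tumor 1, against 136 to 153 CPM in the other ON DOX tumors. Timm23 was also at 72.5 CPM in OFF DOX tumor 1, against 43.5 to 48.4 CPM in the other OFF DOX tumors. Its log2 fold change was 1.39 without ON DOX tumor 1 and 1.83 without OFF DOX tumor 1, and the call held in both (edgeR adjusted p = 0.00165 and 0.00114). Timm22 was at 46.3 CPM in ON DOX tumor 1, against 33.1 to 38.2 CPM in the other ON DOX tumors, and its log2 fold change was -0.26 without that tumor (edgeR adjusted p = 0.181).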

How the results depend on the processing

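With TMM factors and all tumors, 2437 genes were called higher and 2038 lower, among them 11 and 0 of the 20 tested import genes and 24 and 0 of the 54 companion genes. With upper quartile factors 6 import and 15 companion genes were called higher, and the log2 fold change of Tomm34 was -0.048; this scaling moved the median of all genes by -0.21. Library totals alone moved it by -0.31 and gave 1317 genes higher and 3347 lower, with 6 import genes higher and 1 lower, 13 companion genes higher and 2 lower, and log2 fold changes of -0.019 for Tomm7 and -0.15 for Tomm34. An adjusted p below 0.01 left 1187 genes higher and 516 lower, with 6 import and 13 companion genes higher. The lung score as a covariate left 1248 and 579 genes and 14 companion genes higher, and the difference of class medians was 0.35. The muscle score left 1426 and 865 genes, 6 import and 14 companion genes, a class difference of 4.36e-05, and a log2 fold change of 0.17 for Tomm40l. The immune score, chosen after seeing the data, left 1027 and 579 genes, 6 import and 13 companion genes.

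With edgeR the lung-containing tumors alone gave 0 genes higher and 0 lower, 0 import and 0 companion genes, with log2 fold changes of 0.092 for Tomm40l and 0.077 for Timm13. The lung-poor tumors alone also gave 0 and 0 genes, 0 import and 0 companion genes; 3898 and 2288 genes had an unadjusted p below 0.05 in these subsets. DESeq2, chosen after seeing the data, called 629 genes higher and 202 lower in the lung-poor tumors, with 4 import and 7 companion genes, where the single OFF DOX tumor is assumed to vary like the ON DOX tumors. In the lung-containing tumors it called 1283 and 1220 genes, with 7 import and 9 companion genes, and log2 fold changes of 0.082 for Tomm40l and 0.06027 for Timm13. Fewer samples enter these fits; for the other changes in this section the cause was not tested.

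Leaving out 1 tumor at a time gave 1674 to 2955 genes higher (10.9% to 19.1%) and 1015 to 2438 lower, with 8 to 10 import genes higher and 0 lower, 16 to 24 companion genes higher and 0 to 1 lower, and a class difference of 0.11 to 0.27. The count of genes called lower was 1015 without OFF DOX tumor 1 and 1248 without OFF DOX tumor 4.

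Tumors of the groups share the numbers 1 to 4, and the labels give these no shared origin. Deviations of same-numbered tumors correlated at -0.166, 0.457, -0.0653 and 0.263. Numbers 2 and 4 correlated best with their own number and numbers 1 and 3 did not. These values do not show pairing, and the fit without a block was kept. With the number as a replicate block, 1152 genes were called lower, and 7 import genes (against 12.3% of all genes) and 15 companion genes higher. Depth limits Tomm20l and Timm8a2, which could not be tested.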
